A study of Mus musculus with 6 samples.

Results

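The B cell receptor signalling genes and B lineage factors described here are 9 genes: Tnfrsf13c, Btk, Blnk, Syk, Cd79a, Cd79b, Pax5, Ebf1 and Ralgps2. They were taken as every probe set whose platform symbol is one of these names, which gave 19 of the 45037 probe sets measured, and 0 further probe sets carried such a symbol together with that of another gene. The choice of names was not blind: they were chosen on intensities of these same arrays, compared between the genotypes, as well as on gene function, so their values and differences are given as a description without a test. RNA came from sorted hematopoietic stem cells (HSCs) of adult mice, with 3 arrays for homozygous PU.1 knock-in animals (PU.1 ki/ki) and another 3 for wild-type animals. The cells had been sorted as lin-, sca1+, ckit+, CD150+ and CD48-, a gate for long-term HSCs that removes cells with B cell and other lineage surface markers. The labels used here do not give the site or kind of the knock-in, the strain, the number of animals behind an array or any pooling, and a treatment is not named. Spread between arrays may therefore be technical, and p-values measure only that spread.

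A B cell senses antigen through its receptor, an immunoglobulin held at the membrane by the CD79A and CD79B chains, whose cytoplasmic tails carry activation motifs that Src family kinases phosphorylate. The kinase SYK docks on these motifs and phosphorylates the adaptor BLNK, which brings the kinase BTK together with the phospholipase PLCG2. TNFRSF13C, the BAFF receptor, is a separate survival receptor of mature B cells that acts through the noncanonical NF-kappaB route, and the transcription factors EBF1 and PAX5 specify the B lineage and commit cells to it. PU.1, encoded by Spi1, is an ETS family factor needed for myeloid and lymphoid cells that binds purine-rich sites with a GGAA core, and SYK and BTK also serve in myeloid cells and platelets.

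The promoters of 4 members are shown because they let a reader set the member with the largest difference (Tnfrsf13c) beside 3 of the 4 members whose windows hold the PU.1-type core GAGGAA (Btk, Syk and Cd79a; the other is Ebf1). RefSeq windows of GRCm38.p6, reaching from 250 bases before to 50 bases after a gene's start, were given for 8 of the 9 members (11 windows). Each is written 5′ to 3′ on the gene's strand, and capitals mark GAGGAA or AGGAAG on either strand, 2 forms of the ETS core that overlap in GAGGAAG. The Tnfrsf13c window (chr15:82224331-82224630, minus strand) holds neither form. It does hold the shorter GGAA core, which was not searched for or marked in any window.
Tnfrsf13c: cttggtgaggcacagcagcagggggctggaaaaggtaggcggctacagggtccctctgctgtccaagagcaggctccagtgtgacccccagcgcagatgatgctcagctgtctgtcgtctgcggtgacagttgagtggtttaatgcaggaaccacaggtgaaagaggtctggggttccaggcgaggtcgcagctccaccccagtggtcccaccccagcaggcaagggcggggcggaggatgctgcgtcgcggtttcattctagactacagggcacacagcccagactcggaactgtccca
Btk (chrX:134583091-134583390, minus strand): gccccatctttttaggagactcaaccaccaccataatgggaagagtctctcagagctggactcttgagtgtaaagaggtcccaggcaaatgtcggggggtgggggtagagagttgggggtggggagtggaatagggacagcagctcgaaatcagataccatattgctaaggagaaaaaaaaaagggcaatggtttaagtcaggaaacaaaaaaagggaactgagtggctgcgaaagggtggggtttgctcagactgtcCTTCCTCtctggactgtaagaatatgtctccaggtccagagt
Syk, the second of its 2 windows (chr13:52596632-52596931, plus strand): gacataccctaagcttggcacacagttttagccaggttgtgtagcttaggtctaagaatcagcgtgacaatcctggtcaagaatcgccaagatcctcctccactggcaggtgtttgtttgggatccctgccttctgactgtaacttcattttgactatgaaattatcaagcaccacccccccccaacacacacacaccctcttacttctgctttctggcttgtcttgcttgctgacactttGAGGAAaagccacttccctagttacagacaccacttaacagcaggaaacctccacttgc
Cd79a (chr7:24897247-24897546, plus strand): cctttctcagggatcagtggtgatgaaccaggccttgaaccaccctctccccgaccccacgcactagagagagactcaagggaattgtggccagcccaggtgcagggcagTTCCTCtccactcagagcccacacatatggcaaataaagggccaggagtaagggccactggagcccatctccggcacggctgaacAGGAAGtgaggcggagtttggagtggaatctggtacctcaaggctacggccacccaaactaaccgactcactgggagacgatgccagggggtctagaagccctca
GAGGAA was found in 4 of the 11 windows, those of Btk, Syk, Cd79a and Ebf1, against 28.3% of 32851 windows of 300 bases over all genes. AGGAAG was found in 3 (Btk, Blnk and Cd79a), against 35.4%. The E-box CAGGTG, a form bound by E proteins, was found in 7 windows of 5 members (Tnfrsf13c, Blnk, Syk, Cd79a and Ralgps2), against 20.2%. The palindrome of EBF factors (TCCC and GGGA parted by any 2 bases) was found in 0, against 0.904%. These matches are letters in a window and were not tied to any measured binding.

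Of the 45037 probe sets, 0 passed a limma adjusted p of 0.05 in the comparison of the genotypes (0.0%), and 3731 (8.28%) had an unadjusted p under 0.05, 2072 of them higher (4.6%) and 1659 lower (3.68%). Scaling turned this balance, to 1558 higher against 2243 lower with quantile normalization added, and to 1593 against 2130 with arrays centred on their medians, where the median difference of all probe sets was -0.11. Spi1 itself read 170, 212 and 161 in PU.1 ki/ki HSCs, overlapping the 158, 195 and 199 of wild-type HSCs. Wild-type replicates 2 and 3 stood apart from the other 4 arrays. Among 5032 to 5216 bright probe sets per array, those with a median of at least 512 on the other arrays, they read at least 4-fold below that median in 11.5% and 11.3%, against 0.119% to 1.12% on the other 4. Gapdh control signal at the 3′ end over that at the 5′ end was 6.11 and 6.68 on these 2 arrays and 2.98 to 4.75 on the rest. Many differences below are therefore also given against wild-type replicate 1 alone, which has no spread of its own.

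The members split into brighter and dimmer probe sets. Intensities of 10 probe sets, of Tnfrsf13c, Btk, Syk, Cd79b and Ralgps2, averaged at or above the median over all probe sets (49.8), and 9 of these read higher on average in PU.1 ki/ki HSCs. The other 9, of Blnk, Cd79a, Pax5 and Ebf1, averaged below that median, with 3 higher. Over all probe sets 52.8% read higher, and 59.8% of those at or above the median. Tnfrsf13c reached the median only through its PU.1 ki/ki readings, as its wild-type mean was 40.0, so nothing is read from these counts. The groups had no overlapping values for 5 of the 19 probe sets, 4 higher (Tnfrsf13c, Btk, 1 of Syk and 1 of Ralgps2) and 1 lower (Cd79a). Over all probe sets 12.1% did not overlap, 6.62% higher and 5.46% lower (2981 and 2457), a split of 2326 and 3354 after quantile normalization and of 2301 and 6489 after centring. The same 5 member probe sets were separated under both scalings, and centring added 2 lower ones, Pax5 1454401_at and Ebf1 1448293_at. The rule that picked the members used this contrast, so nothing is read from their count. The median difference was 0.47 over the 19 probe sets and 0.00 over all, as PU.1 ki/ki minus wild type on the log2(intensity + 1) scale that all differences below share. The spread of log2 values was wider among wild-type than among PU.1 ki/ki arrays for 16 of the 19, as for 71.7% of all probe sets.

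**Figure D1:**
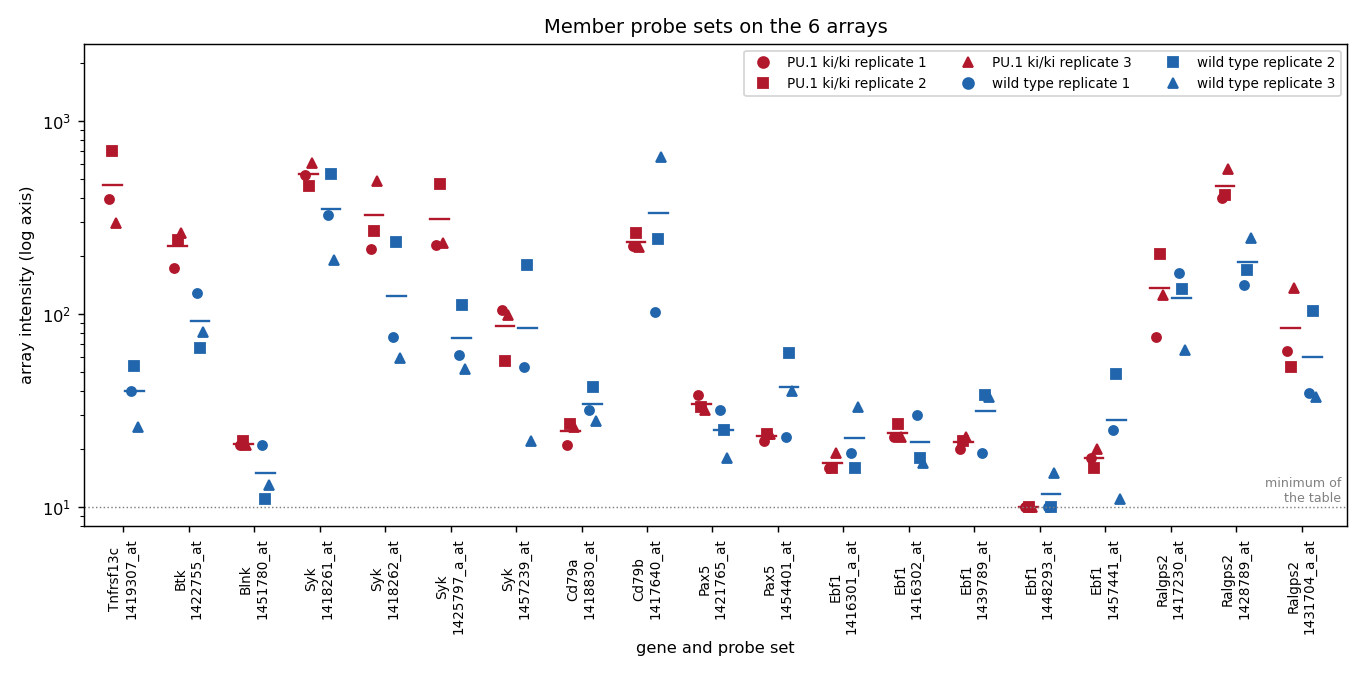
Array intensity (log axis) of the 19 probe sets of the 9 genes, with red for the 3 PU.1 ki/ki and blue for the 3 wild-type arrays, a symbol shape per replicate number, and bars at the group means. Tnfrsf13c, Btk, Syk 1425797_a_at and Ralgps2 1428789_at have all red symbols above all blue ones, while Blnk, Cd79a, Pax5 and Ebf1 lie at 63 or less on every array.

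Tnfrsf13c, the BAFF receptor, had the largest difference of the members. Its only probe set (1419307_at) read 394, 700 and 295 on PU.1 ki/ki replicates 1 to 3 and 40, 54 and 26 on wild-type replicates 1 to 3. The lowest PU.1 ki/ki value was thus far above the highest wild-type value. The means were 463 ± 211 and 40.0 ± 14.0 (SD, n = 3 each), a difference of 3.46 ± 0.43 (SE). With dim wild-type readings its size depends on the pseudocount, and it was 3.04 with a pseudocount of 16. It ranged from 3.12 to 3.74 with any 1 array removed, and was 3.41 against wild-type replicate 1 alone, the wild-type array with little lost signal. No second probe set of this gene was named, so the reading rests on a single set of probes. In RNA from a whole sort, fewer cells with a transcript and less of it per cell cannot be told apart, which holds for every gene below.

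Other genes of the BAFF and APRIL system did not share the size of this difference. Tnfsf13b, the ligand BAFF, read 53, 35 and 46 against 51, 68 and 158 in wild-type HSCs, with overlap and a difference of -0.88 (-0.21 against wild-type replicate 1 alone). Tnfrsf13b, the receptor TACI, read 410, 280 and 155 against 311, 170 and 93 (0.61, turning to -0.25 against wild-type replicate 1 alone), and Tnfrsf17, the plasma cell receptor BCMA, read 15 to 27 on all 6 arrays. The second receptor of the ligand therefore read above the median over all probe sets (49.8) on every array, and the third was dim in both groups. Birc3, an inhibitor of apoptosis protein in the receptor's TRAF complex, was the 1 gene of this list whose groups did not overlap, with 249, 198 and 353 against 148, 96 and 137 (1.05 ± 0.29 SE, limma adjusted p = 0.512). Of the 12 entries 9 were measured, 5 differed above 0 and 4 below (median 0.27), and 0 passed the adjusted threshold. Against wild-type replicate 1 alone the median was -0.06.

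Btk, the Tec family kinase downstream of the B cell receptor, read 174, 242 and 262 in PU.1 ki/ki against 128, 67 and 81 in wild-type HSCs (1422755_at). All 3 PU.1 ki/ki values were above all 3 wild-type values, with the gap narrowest to wild-type replicate 1. The difference was 1.32 ± 0.31 (SE), 1.12 to 1.58 with any 1 array removed, and 0.79 against wild-type replicate 1 alone. Here the arrays with lost signal, replicates 2 and 3, had the lower wild-type readings. Their part in the difference was not tested beyond these values.

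Blnk, the adaptor that joins SYK to BTK and PLCG2, was dim on every array. It read 21, 22 and 21 in PU.1 ki/ki HSCs and 21, 11 and 13 in wild-type HSCs (1451780_at), with wild-type replicate 1 at the PU.1 ki/ki level. The difference was 0.53 ± 0.26 (SE) over all arrays and 0.02 against wild-type replicate 1 alone. Plcg2, the phospholipase that BLNK and BTK activate, was bright and overlapped, with 1469, 1074 and 1275 against 1042, 1836 and 1891 (-0.28, limma adjusted p = 0.794). Against wild-type replicate 1 alone its difference turned to 0.28, so no direction is given for Plcg2.

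Syk, the kinase that reads the phosphorylated CD79 tails, was measured by 4 probe sets, all with a difference above 0 and 1 without overlap. That one (1425797_a_at) read 227, 473 and 232 in PU.1 ki/ki and 61, 111 and 52 in wild-type HSCs, and differed by 2.03 ± 0.44 (SE). It was 2.24 against wild-type replicate 1 alone and 1.69 to 2.35 with any 1 array removed. The brightest of the 4 (1418261_at) told less: it read 525, 459 and 603 against 327, 529 and 191 (0.71 ± 0.40). Probe set 1418262_at read 218, 268 and 489 against 76, 237 and 59 (1.57 ± 0.63). On both of these wild-type replicate 2 lay among the PU.1 ki/ki values, while replicates 1 and 3 were below them all. The last (1457239_at) read 105, 57 and 99 against 53, 180 and 22, where wild-type replicate 2 was the highest of all arrays (0.48 ± 0.81). With any 1 array removed, 1418261_at ranged from 0.34 to 1.07, 1418262_at from 1.18 to 2.17 and 1457239_at from -0.22 to 1.27, turning below 0 without wild-type replicate 3. The 4 differences thus ranged from 0.48 to 2.03, and which Syk transcripts each one reads is not given in the annotation used here.

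Cd79a and Cd79b, the signalling chains of the receptor, gave no direction that could be set beside the kinases. Cd79a was dim, with 21, 27 and 26 in PU.1 ki/ki and 32, 42 and 28 in wild-type HSCs (1418830_at, -0.44 ± 0.20 SE, and -0.37 against wild-type replicate 1 alone). Its groups did not overlap, but the nearest values, 27 and 28, were 1 intensity unit apart. With readings this close to the table's minimum and no detection call, neither a size nor a direction is drawn for Cd79a. Cd79b was brighter, with readings that were steady in PU.1 ki/ki HSCs, at 224, 263 and 221, and scattered in wild-type HSCs, at 102, 245 and 649 (1417640_at). Wild-type replicate 1 was below and replicate 3 above every PU.1 ki/ki value, and the difference of -0.11 ± 0.69 (SE) turned to 0.57 without wild-type replicate 3 and to 1.20 against wild-type replicate 1 alone. No direction can be given for Cd79b from these arrays.

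Pax5 and Ebf1, the factors of B lineage commitment and specification, stayed dim on all arrays. The 2 probe sets of Pax5 pointed in opposite directions. One (1421765_at) read 38, 33 and 32 against 32, 25 and 18 (0.47 ± 0.24 SE), and the other (1454401_at) 22, 24 and 24 against 23, 63 and 40 (-0.71 ± 0.38). Against wild-type replicate 1 alone these shrank to 0.09 and 0.02. Of the 5 probe sets of Ebf1, 1 differed above 0 and 4 below, all with overlap. Ebf1 1448293_at was at the table's minimum of 10 on 5 arrays and at 15 on wild-type replicate 3, so no fold is given. The others read 16 to 27 in PU.1 ki/ki against 11 to 49 in wild-type HSCs, with differences of -0.45 to 0.20. The highest of these wild-type readings were on replicate 2 (38 on 1439789_at and 49 on 1457441_at) and replicate 3 (37 on 1439789_at and 33 on 1416301_a_at), the arrays that stand apart. The table holds no detection call, so whether these values lie above background could not be read from it.

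Ralgps2, an exchange factor for Ral GTPases, was measured by 3 probe sets that shared a sign and differed in size. The brightest (1428789_at) read 397, 415 and 564 in PU.1 ki/ki and 141, 168 and 247 in wild-type HSCs, with no overlap. Its difference was 1.32 ± 0.27 (SE), 1.15 to 1.55 with any 1 array removed, and 1.68 against wild-type replicate 1, which was the lowest of the wild-type arrays. The other probe sets overlapped. Probe set 1431704_a_at read 64, 53 and 136 against 39, 104 and 37 (0.53 ± 0.57), and 1417230_at read 76, 205 and 126 against 163, 134 and 65 (0.15 ± 0.52). With any 1 array removed, 1431704_a_at ranged from 0.13 to 1.01 and 1417230_at from -0.24 to 0.51. On 1417230_at the difference turned to -0.38 against wild-type replicate 1 alone and to -0.04 with quantile normalization added, so its sign is not settled.

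**Figure D2:**
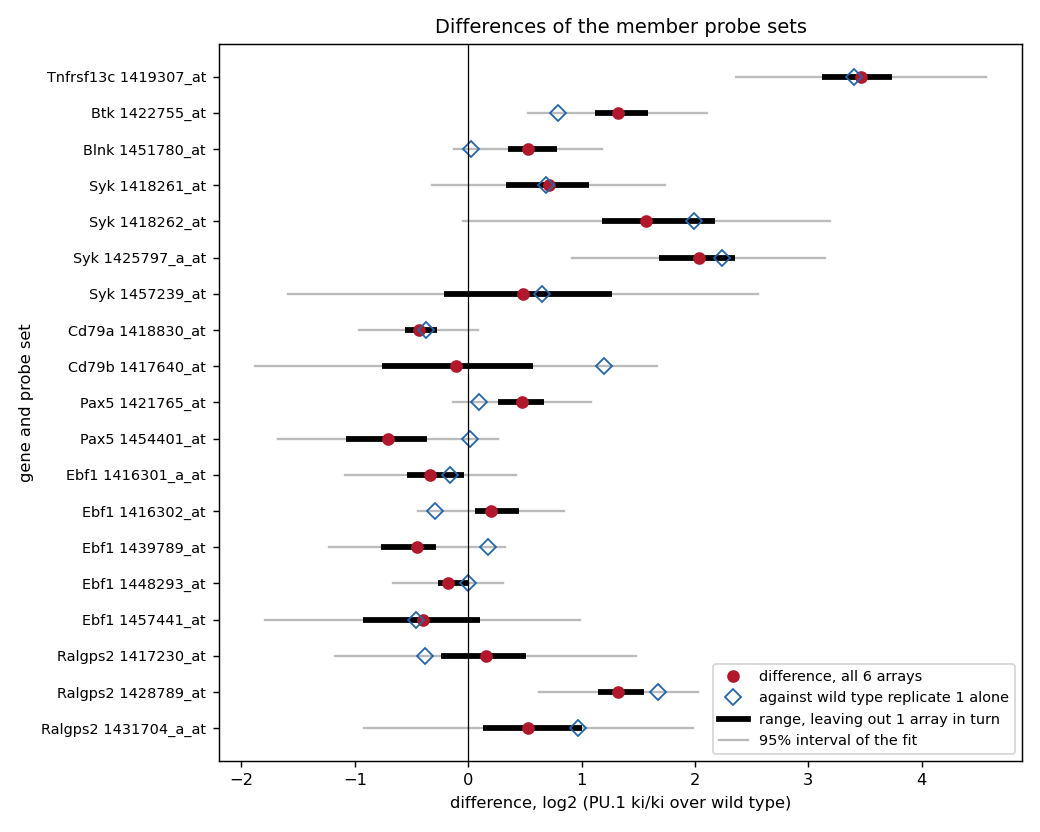
Log2 difference (PU.1 ki/ki minus wild type) of each of the 19 probe sets: red points use all 6 arrays, grey lines are the 95% interval of the fit, black bars span the values with single arrays left out, and blue diamonds use wild-type replicate 1 alone. The black bars of Tnfrsf13c (3.12 to 3.74), Btk, Syk 1418262_at, Syk 1425797_a_at and Ralgps2 1428789_at lie above 1, and the diamonds of Blnk and both Pax5 probe sets lie near 0. The members were chosen with this contrast known, so intervals and bars describe the values and are not a test.

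Other steps of the B cell receptor pathway were read from lists that leave out the members, with the brightest probe set of each gene. Over the 6 lists, 85 of 94 genes were measured, 0 passed the limma adjusted threshold, and 10 had an unadjusted p under 0.05 with higher and 3 with lower values in PU.1 ki/ki HSCs. Groups did not overlap for 11 higher and 4 lower genes (12.9% and 4.71% of the 85). Over all 18193 named genes, 0.0% passed, 4.39% had an unadjusted p under 0.05 and were higher and 4.27% lower (8.66% in all), and 12.8% did not overlap, 6.44% higher and 6.36% lower. Of the 85 genes, 58 were at or above the median intensity. Among probe sets at that intensity, 8.84% were higher and 4.99% lower without overlap, and 6.17% were higher and 3.54% lower at an unadjusted limma p under 0.05. The list counts are those of the deposited scaling, and the balance over all probe sets turned with scaling, as given above. The median difference was 0.01 both over the 85 and over all named genes. The lists were written with earlier results of these arrays known, so their counts are not independent evidence.

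Among activating components of the pathway, 16 of 23 measured genes differed above 0 and 7 below, with a median of 0.35 and 0 passing the adjusted threshold. Of all named genes 52.2% differed above 0. The share was 59.8% among probe sets at or above the median intensity, where 18 of the 23 genes lie. The list's median was 0.24 against wild-type replicate 1 alone and 0.19 with all probe sets of a gene averaged. The groups did not overlap for 5 higher genes, among them Fyn, Pik3ap1 and Bcl10, and for 1 lower gene, Blk. Fyn, a Src family kinase, read 451, 527 and 541 in PU.1 ki/ki and 289, 216 and 221 in wild-type HSCs (1.07 ± 0.17 SE, limma adjusted p = 0.430), and its other probe set had the same sign. Bcl10, which links the receptor to NF-kappaB, read 863, 1105 and 656 against 442, 208 and 82 (2.12 ± 0.66, limma adjusted p = 0.546), and 0.95 against wild-type replicate 1 alone. On Bcl10 the lower wild-type readings were again those of replicates 2 and 3. Pik3ap1, an adaptor for phosphoinositide 3-kinase, read 50, 96 and 73 against 38, 27 and 21 (1.31 ± 0.34, limma adjusted p = 0.508), while its other probe set had the opposite sign. Blk, the Src family kinase most restricted to B cells, was dim, with 18, 18 and 15 against 21, 35 and 30 (-0.70 ± 0.23, limma adjusted p = 0.557). Those of Fyn, Pik3ap1 and Blk were 0.80, 0.88 and -0.29 against wild-type replicate 1 alone.

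Inhibitory components had a median of -0.19, with 5 of 16 genes above 0, 11 below and 0 passing. Groups did not overlap for 2 higher and 2 lower genes. Ptpn22, a phosphatase that restrains antigen receptor signalling, read 119, 163 and 93 against 80, 41 and 33 (1.33 ± 0.41 SE, limma adjusted p = 0.542). Cbl, a ubiquitin ligase, read 393, 441 and 824 against 280, 253 and 254 (0.99 ± 0.31, limma adjusted p = 0.551). Both were thus higher on each PU.1 ki/ki array than on any wild-type array. Dok1, an adaptor that recruits negative regulators, read 214, 323 and 267 against 504, 389 and 741 (-0.99 ± 0.30, limma adjusted p = 0.542). Cd5, a receptor of T cells and a subset of B cells, was dim, with 17, 18 and 15 against 19, 36 and 33 (-0.73 ± 0.27, limma adjusted p = 0.595). Against wild-type replicate 1 alone the differences were 0.60 for Ptpn22, 0.90 for Cbl, -0.93 for Dok1 and -0.18 for Cd5, and the list's median was 0.07.

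Transcription factors of B cell development other than the members had a median of 0.06, with 11 of 20 above 0, 9 below and 0 passing. Myb, a factor of progenitor cells, was the only one without overlap, at 3123, 2265 and 3128 in PU.1 ki/ki and 5035, 4655 and 3161 in wild-type HSCs (-0.58 ± 0.25 SE, limma adjusted p = 0.621), and 1 of its 2 other probe sets had the opposite sign. Tcf3, which encodes the E2A proteins upstream of Ebf1, read 349, 202 and 582 against 575, 318 and 514 (-0.40 ± 0.46). Ikzf1, encoding Ikaros, read 1146, 892 and 2206 against 1283, 414 and 824 (0.79 ± 0.55). Both overlapped between groups. Against wild-type replicate 1 alone the differences were -0.84 for Myb, -0.74 for Tcf3 and 0.03 for Ikzf1, and the list's median was -0.04.

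Genes of the pre-B cell stage had a median of -0.42, with 3 of 9 above 0, 6 below and 0 passing. Rag1, the recombinase gene, was at 10 or 11 on all arrays. Igll1, a surrogate light chain gene, read 46, 36 and 39 against 77, 43 and 48, and Vpreb1, its partner, 123, 73 and 39 against 94, 71 and 57. Cd24a, a surface glycoprotein of immature B cells and of several other blood cells, was the exception: it read 4216, 3368 and 3503 against 1653, 1580 and 1391 (1.26 ± 0.15 SE, limma adjusted p = 0.4004). Its groups did not overlap, both remaining probe sets of the gene shared its sign, and the difference was 1.15 against wild-type replicate 1 alone. The list's median was 0 against that array alone. The summed intensity of the 9 genes was 3631 to 4630 in PU.1 ki/ki and 1779 to 2004 in wild-type HSCs, and without Cd24a it was 217 to 414 against 351 to 388. Since Cd24a was the only gene of the list without overlap, taking it out favours overlapping sums in advance, and nothing is drawn from that.

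**Figure D3:**
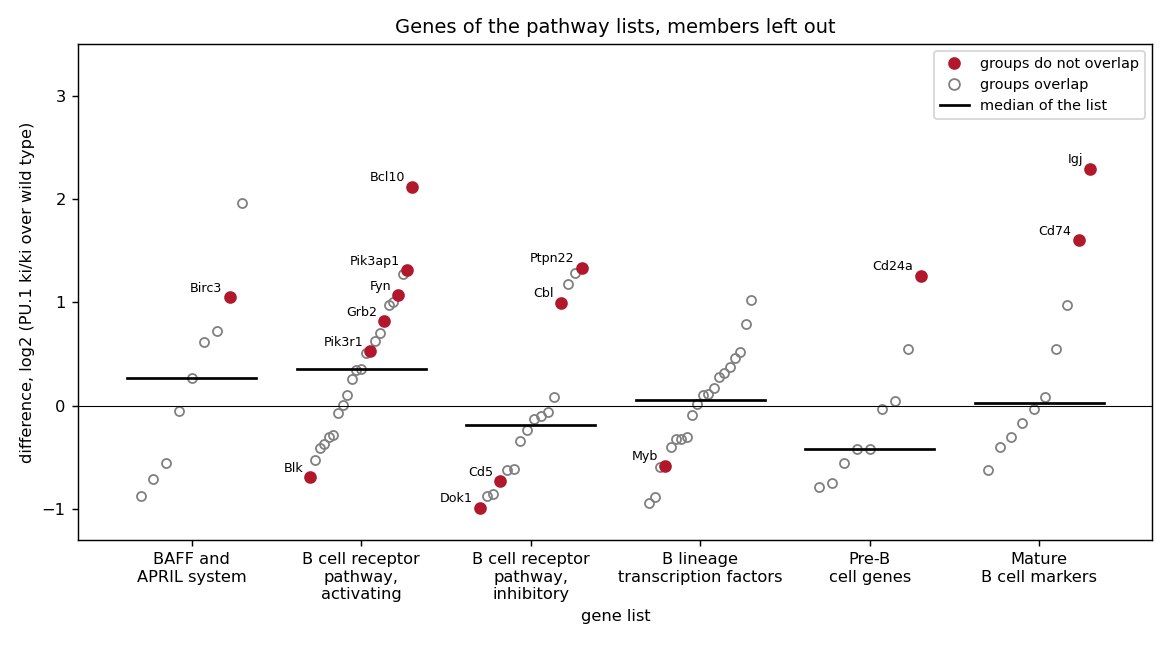
Log2 differences (PU.1 ki/ki minus wild type) of the measured genes of 6 lists, 1 point per gene sorted within its list, filled and named where the groups do not overlap, with black lines at the list medians (-0.42 to 0.35). Bcl10 (2.12) and Igj (2.29) are the highest named points and Dok1 (-0.99) the lowest, and 0 genes passed the adjusted threshold.

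Markers of mature B cells had a higher sum in PU.1 ki/ki HSCs, with most of the gap from Cd74. The summed intensity of 10 measured markers of 12 was 3150 to 3457 in PU.1 ki/ki against 1365 to 2394 in wild-type HSCs, which do not overlap. Among B cell surface markers, Ms4a1 (CD20) read 11 to 19 in PU.1 ki/ki and 19 to 36 in wild-type HSCs. Cd22 read 25 to 45 and 22 to 60, Cr2 (CD21) 18 to 22 and 16 to 40, and Fcer2a (CD23) 28 to 76 and 12 to 93. Cd37, a tetraspanin also found on other leukocytes, was bright on all arrays, with 498, 351 and 252 against 690, 188 and 364 (-0.03). Without Cd74, Igj and Ighm the other 7 summed to 436 to 636 against 310 to 916. Cd74 and Igj were the only markers of this list without overlap between groups. Taking them out favours overlapping sums in advance, so nothing is drawn from that overlap. Most of the gap between the sums came from Cd74, the invariant chain of MHC class II, at 1211, 1447 and 1208 against 397, 295 and 642 (1.60 ± 0.32 SE, limma adjusted p = 0.463). A similar separation was seen for Igj, the joining chain of secreted antibodies, at 358, 342 and 265 against 132, 41 and 49 (2.29 ± 0.49, limma adjusted p = 0.463). Ighm, the IgM heavy chain, read 1222, 1201 and 1241 against 949, 1586 and 159, with overlap, and 3 of 10 further probe sets shared its sign. As a multigene family its probe sets are of uncertain identity. In counts, 5 of the 10 markers differed above 0 and 5 below (median 0.03, 0 passing). That median was -0.24 against wild-type replicate 1 alone and 0.48 without that array. It was 1.29 over the 4 genes left without dim probe sets, Cd37, Ighm, Igj and Cd74. The differences of Cd74 and Igj were 1.69 and 1.27 against wild-type replicate 1 alone. The part of any B lineage cells in the member differences was not tested.

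Markers of other cell types were compared between arrays in the same way. The 8 measured HSC markers of 10 were all at or above the median intensity, with sums of 5821 to 7396 in PU.1 ki/ki and 4167 to 7125 in wild-type HSCs. Slamf1, which encodes the CD150 of the gate, read 696, 1525 and 170 against 440, 54 and 42, and Kit 617, 452 and 1368 against 374, 1622 and 1001. Both gate genes overlapped between groups. T and NK cell markers (8 of 11 measured) summed to 402 to 511 against 535 to 814, without overlap and lower in PU.1 ki/ki HSCs. The brightest of them, Nkg7, weighs most in this sum and overlapped, with 168, 194 and 98 against 481, 283 and 170. Of the 8 genes, 6 differed below 0, with only Cd3e lower without overlap, and 2 above 0, among them Cd4 at 144, 53 and 100 against 58, 18 and 50. Macrophage and dendritic markers (10 of 10 measured) summed to 909 to 1825 against 465 to 1341 and differed above 0 for 9 of 10, with C1qb at 567, 119 and 73 against 10 on each wild-type array and Itgam at 11 to 19 throughout. Since SYK and BTK are also made by myeloid cells, this list is set beside their values, as is the granulocyte list that follows, where the sign was the opposite. The part of either list in the values of Syk and Btk was not tested. Granulocyte markers (9 of 10 measured) summed to 15389 to 22016 against 20841 to 29054, and 9 of 9 differed below 0. Erythroid markers (6 of 8) summed to 339 to 887 against 456 to 1663, and megakaryocyte markers (6 of 6) to 1853 to 3813 against 1298 to 1889, both with overlap. Of the erythroid genes 2 differed above 0 and 4 below. Klf1 was higher without overlap (118, 123 and 159 against 42, 21 and 11), and Hba-a1 was lower without overlap. Of the megakaryocyte genes 5 differed above 0 and 1 below. Only Vwf did not overlap (815, 1435 and 1357 against 617, 490 and 298). The part of the megakaryocyte list in the values of Syk and Btk was not tested either. Of these lists 0 genes passed the limma adjusted threshold, and 0 were at the minimum of 10 on all arrays.

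**Figure D4:**
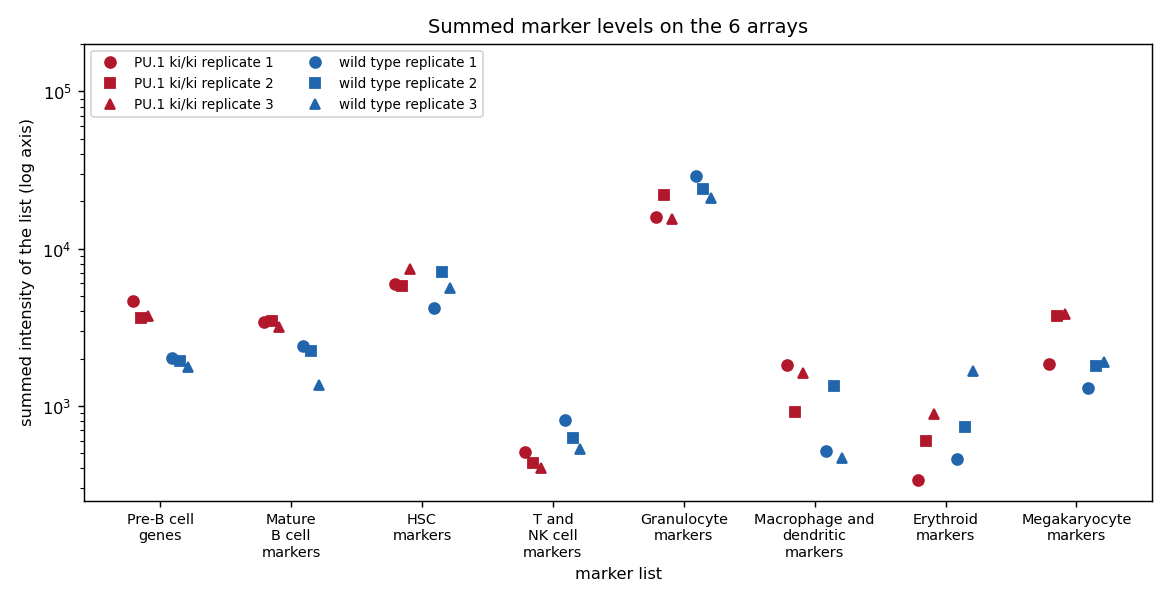
Summed intensity (log axis) of 8 marker lists on each array, red for PU.1 ki/ki and blue for wild type, with a symbol shape per replicate number; lists hold different numbers of probe sets, so heights compare arrays within a list and not lists. The pre-B and mature B cell sums lie higher on all 3 PU.1 ki/ki arrays, the T and NK cell sum lies lower, and the other 5 overlap.

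For members whose brightest probe set had no overlap, which leaves out Syk, the most like genes were taken as those with the smallest mean absolute difference of centred log2 values over the 6 arrays, among genes at or above the median intensity. For Tnfrsf13c these were Nkiras1, Reep2, Cdk13, Cd300a and Rilpl1, at distances of 0.33 to 0.55. Nkiras1, a Ras-like protein that binds NF-kappaB inhibitors, read 255, 519 and 220 against 48, 57 and 29 and followed it most closely, with PU.1 ki/ki replicate 2 highest in both genes. For Btk they were 3110009E18Rik, Ss18l1, Cmpk2, Smagp and C77080, at 0.10 to 0.14, and Cmpk2 read 80, 126 and 135 against 60, 42 and 46. For Ralgps2 1428789_at they were Dlg1, Ptpn23, Letm2, Nckap1l and Tmx3, at 0.09 to 0.20, and Dlg1 read 360, 433 and 496 against 123, 163 and 251. For Cd79a they were Hoxc6, Sfi1, Hibch, Cox17 and Idh2, at 0.07 to 0.09. The lists of like genes of Tnfrsf13c, Btk and Ralgps2 shared 0 names. The intensity filter used the mean over all 6 arrays. Nkiras1, Reep2, Ss18l1, Cmpk2 and C77080 passed it only through their PU.1 ki/ki readings. Their wild-type means were 42.3 to 49.3, below the median of 49.8, so the filter favoured genes with this contrast. With 6 arrays from 2 groups, many genes can have such a profile, and the likeness says nothing of shared control.

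**Figure D5:**
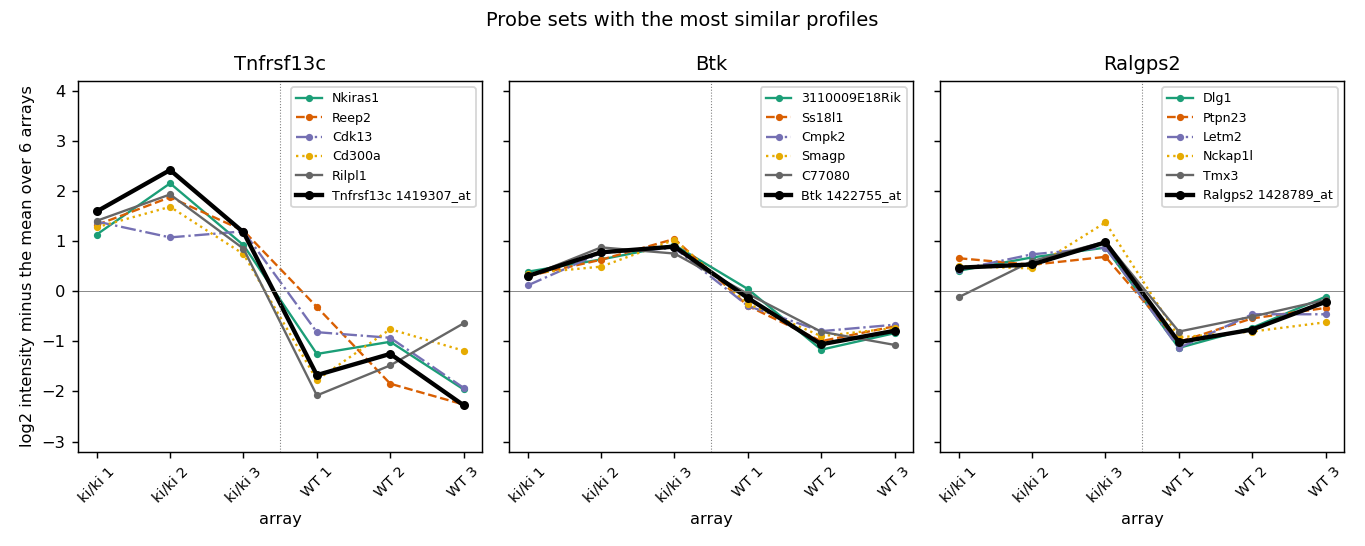
Log2 intensity minus its mean over the 6 arrays for Tnfrsf13c, Btk and Ralgps2 1428789_at (black) and the 5 most similar genes of each (coloured); lines only join the arrays of a gene, and the dotted line divides the genotypes. Tnfrsf13c and its like genes span a wider range than Btk or Ralgps2, and the wild-type arrays run in a different order in the panels of Btk (replicate 1 highest) and Ralgps2 (replicate 3 highest).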

How the data were processed

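Deposited intensities of 6 single-colour Affymetrix arrays were analysed, 1 linear whole number per probe set and array from 10 to 27574. They were made by the authors with RMA per the submitters' processing notes; its version, the conversion from a log scale and the floor of 10 are not given in the sources used here. Groups and replicate numbers came from the sample titles; a free-text sample description that speaks of embryos goes against every other label and was set aside. Of 45101 entries, 64 control probe sets were left out. Names came from the platform annotation, with 1 symbol for 34945 probe sets, several genes for 932 and none listed for 9160; of 152 list entries 134 were measured.

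Differences and standard errors came from limma 3.58.1 (lmFit and eBayes, R 4.3.3) on log2(intensity + 1) with the group as the only term, fitted to all 45037 probe sets with Benjamini-Hochberg adjustment. This understates changes of dim probe sets. For lists, the probe set with the highest mean over the 6 arrays stood for a gene. The genes named were all members, up to 3 higher and 3 lower genes per list with the lowest p among those without overlap, and a fixed panel. Members and lists were chosen with earlier results of these data known. Alternatives were other scalings, pseudocounts (16 or none), a filter on dim probe sets, other variance priors, array weights, a replicate block, all probe sets averaged, and arrays left out. The number of arrays, lost signal on wild-type replicates 2 and 3 and readings near the floor limit the precision. Figures used matplotlib 3.10.9.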

Additional observations from a re-analysis of the deposited data

How the results depend on the processing

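With limma, 0 probe sets passed an adjusted p of 0.05 under any scaling, pseudocount, filter, prior, array weighting or array left out (0 to 0 when single arrays were left out), at an adjusted p under 0.1, or with the replicate block, and 0 of the 85 pathway genes passed under the same settings or with all probe sets of a gene averaged. Probe sets below 0.05 before adjustment numbered 3731, rising to 7183 without wild-type replicate 1, and were 1704 of 22542 when dim probe sets were left out of the fit, where the fit to all had 2189 among the same 22542; the cause was not tested. The median difference of the member probe sets, 0.47, was 0.24 to 0.50 when single arrays were left out, 1.01 over the 10 left without dim probe sets (a filter that Tnfrsf13c passed only through its PU.1 ki/ki readings), and 0.18 without wild-type replicates 2 and 3; the cause was not tested. In that last setting 8 of the 19 member differences moved by more than the spread between arrays. These included 2 probe sets separated between the groups, Btk (to 0.79) and Ralgps2 1428789_at (to 1.68). Signs changed for 5, and none of these 5 was separated between the groups. The replicate block cannot move a difference in this balanced design (the median is 0.47 by construction), and with it 3369 probe sets had an unadjusted p under 0.05; same-numbered arrays did not deviate together (correlations of -0.02, 0.02 and -0.02), so the numbers were not taken as pairs. Readings at 10 to 40, which include the wild-type readings of Tnfrsf13c on replicates 1 and 3, are too close to the floor for differences to be sized closely.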
